A study of Mus musculus with 27 samples.

Results

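Expression of 10 genes of hyaluronan metabolism, among 53379 genes in the count table, was followed in hepatic stellate cells (HSCs) of mice during liver injury and recovery. The genes were chosen by what their products do, with no measured value in the rule, although earlier results of these data were known when they were chosen. They were the hyaluronan synthases Has1, Has2 and Has3, the enzyme Ugdh that supplies one of the sugars, the hyaluronidases Hyal1 and Hyal2, the hyaluronan-degrading factor Cemip, the hyaluronan receptors Cd44 and Layn, and the secreted hyaluronan-binding protein gene Tnfaip6. HSCs of male Balb/c mice were isolated by liver perfusion and sorted by the ultraviolet fluorescence of stored retinoid, and their RNA was sequenced in bulk without culture. Healthy mice, 10 to 12 weeks old and not injected, gave 4 libraries. Acute groups received 1 intraperitoneal injection of the hepatotoxin carbon tetrachloride (CCl4) in mineral oil at 0.5 µL per g of body weight, at 10 to 12 weeks of age, and their HSCs were collected 24 h later for 3 libraries, or 72 h or 7 d later for 4 libraries each. Chronic groups received the same dose semi-weekly for 4 weeks from 8 to 10 weeks of age, and HSCs were taken 24 h, 72 h or 14 d after this course, with 4 libraries each. Because no group received oil alone, the injection and the vehicle cannot be told apart from CCl4, and the gate holds only cells that still carry retinoid.

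Hyaluronan is a long unbranched sugar polymer that synthases in the plasma membrane build from 2 nucleotide sugars and extrude directly into the matrix. Hyaluronidases and lysosomal glycosidases cut it, receptors such as CD44 bind it at the cell surface, and TSG-6, the product of Tnfaip6, cross-links it by moving protein chains onto it. In the liver, stellate cells are known as a main source of hyaluronan, and sinusoidal endothelial cells are known to take it up from the blood.

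Total counts ranged from 6.31 M to 13.1 M per library over the 27 libraries. Of these, 8 had a lower depth, namely the first and second replicates of both the 24 h and the 72 h chronic groups and the whole chronic 14 d group. All 10 stellate cell markers were detected in every group, with a summed level of 24673 to 30642 CPM (counts relative to the size of the library) in healthy and 7416 to 18956 CPM in injured libraries. All levels are CPM after scaling by the trimmed mean of M values. A gene was called when its Benjamini-Hochberg adjusted p in edgeR's quasi-likelihood test was below 0.05 and its change was above 2-fold. In bulk RNA, fewer cells of a type and less RNA per cell cannot be told apart.

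CCl4 was followed by higher Has1, Cd44 and Tnfaip6 at every time point examined. No tested hyaluronidase gene was called higher than healthy in edgeR, beside 4.55% to 11.2% of all genes. With so few tested, this cannot be told apart from that share. Of the 8 members that passed the filter on low counts, Has1, Cd44 and Tnfaip6 were called higher than healthy in all 6 injured groups, Ugdh in 5 and Has2 in 3. Hyal1 was called lower in 1 group, and Hyal2 and Layn were called in none. Has3 and Cemip did not pass the filter, and Has2 passed it only through the groups in which it was high. The tests of Has2 given below are therefore not independent of the filter. In each of the 23 injured libraries Has1, Cd44, Tnfaip6 and Ugdh lay above the highest of the 4 healthy libraries. The share of all genes that separate in this way was not counted, here or for the separations given below. The 6 comparisons with healthy share these 4 libraries.

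Has2 is therefore left out of the counts of this paragraph, which are over the other 7. By time point, 4 of the 7 were called higher and 1 lower at acute 24 h, where 9.41% of all 18758 tested genes were called higher and 12.5% lower. The count called higher was again 4 at acute 72 h, against 8.23% of all genes, at acute 7 d, against 9.23%, at chronic 24 h, against 11.2%, and at chronic 72 h, against 7.88%. It was 3 at chronic 14 d, against 4.55%. No member was called lower by edgeR at these 5 time points, where 4.33%, 5.64%, 8.11%, 4.20% and 1.17% of all genes were. DESeq2 called none lower there either, and at an unadjusted p below 0.05 in edgeR the numbers lower were 2, 0, 2, 1 and 1. The median log2 fold change of the 7 was 1.85 at acute 24 h and 1.61 at chronic 24 h, beside -0.12 and -0.03 over all genes, and it was 0.66 at chronic 14 d, beside -0.03.

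**Figure D1:**
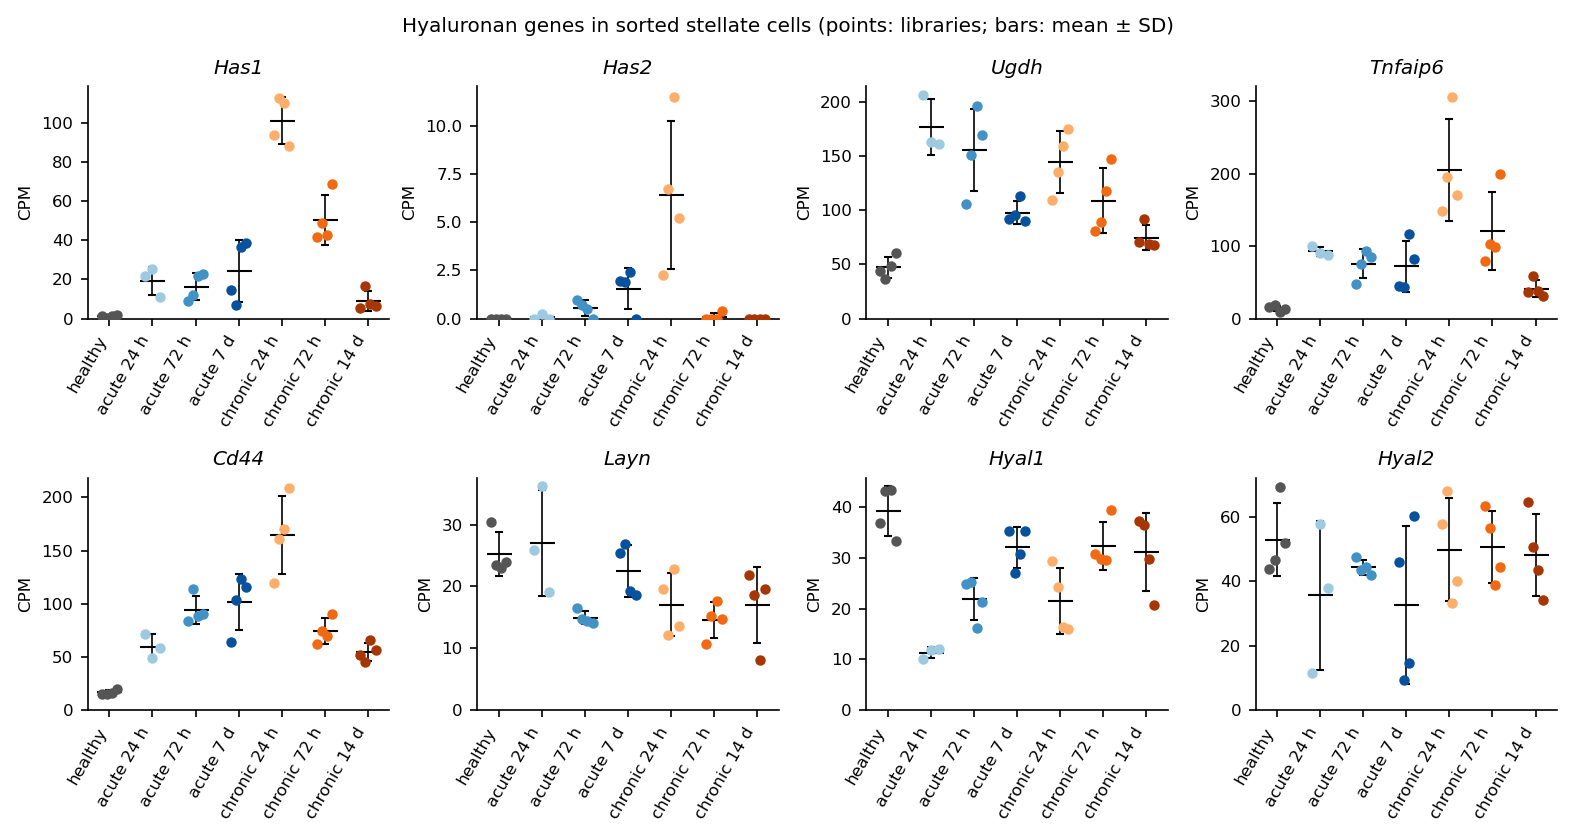
Level of the 8 tested hyaluronan genes in each library (points, in CPM), with the group mean and SD as bars, for healthy, acute and chronic groups. Has1 lies between 87.9 and 112 CPM in the 4 chronic 24 h libraries and at or below 1.65 CPM in the 4 healthy ones, while the Hyal2 ranges of all groups overlap.

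Upstream sequence of the 3 genes that were higher in all 6 injured groups is shown to let their starts be compared. It was taken from RefSeq (GRCm38.p6), in which 8 of the 10 members had an entry and Has2 and Has3 had none. Each run reads 5′ to 3′ on the strand of the gene and ends at the base before the first annotated exon. Has1 is at chr17:17855206-17855438 on the minus strand, Tnfaip6 at chr2:52037863-52038008 on the plus strand and Cd44 at chr2:102901666-102901915 on the minus strand. Capitals mark a motif match.
Has1: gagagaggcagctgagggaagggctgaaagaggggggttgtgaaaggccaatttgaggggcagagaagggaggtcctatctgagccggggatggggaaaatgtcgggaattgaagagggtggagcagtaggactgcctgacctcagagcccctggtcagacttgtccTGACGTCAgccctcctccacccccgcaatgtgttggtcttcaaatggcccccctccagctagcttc
Tnfaip6: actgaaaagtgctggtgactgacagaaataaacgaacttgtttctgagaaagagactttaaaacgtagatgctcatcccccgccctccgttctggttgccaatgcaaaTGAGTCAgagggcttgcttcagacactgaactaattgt
Cd44: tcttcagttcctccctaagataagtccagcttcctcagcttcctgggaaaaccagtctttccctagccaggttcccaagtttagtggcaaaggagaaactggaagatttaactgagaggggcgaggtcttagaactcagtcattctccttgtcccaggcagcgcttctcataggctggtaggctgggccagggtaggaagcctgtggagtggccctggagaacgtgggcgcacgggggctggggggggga

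Both strands of the 250 bases before each RefSeq start were searched for the AP-1 letters TGANTCA, the TEAD letters GGAATG, the TATA box letters TATAAA, the cAMP response element letters TGACGTCA, and the kappaB and CArG box motifs. The cAMP response element was added to the search after the Has1 sequence had been seen. Has1 held TGACGTCA 83 to 76 bases before its RefSeq start, which 1.55% of 32851 promoters of that length also held. Tnfaip6 held TGAGTCA, an AP-1 match, 142 to 136 bases before its start, beside 6.75% of promoters. It also held the TEAD letters 8 to 3 bases before its start, beyond the stretch printed, as did 12.6% of promoters. No letters of these 6 motifs were found in the Cd44 window. Among the other members, Cemip held a TATA box match, a motif of 12.4% of promoters, and Hyal2 held a kappaB match (7.25% of promoters) that shares 1 base with a TEAD match. The CArG box, present in 1.47%, was in none. A match is a description of the letters only.

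Has1 (ENSMUSG00000003665, chr17:17843323-17855205, minus strand), which encodes one of the 3 synthases, was the member with the largest change among those counted in every group. In healthy HSCs it was at 1.18, 0.488, 1.43 and 1.65 CPM. At acute 24 h it was at 21.6, 25.1 and 11.2 CPM, and at chronic 24 h at 93.8, 112, 110 and 87.9 CPM. The lowest acute 24 h library thus lay above all healthy ones, and the lowest chronic 24 h library above every library of the other 6 groups. The log2 fold change against healthy was 4.00 ± 0.53 (SE) at acute 24 h (adjusted p = 5.20e-06) and 6.39 ± 0.56 at chronic 24 h (adjusted p = 1.55e-08).

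At later acute time points Has1 stayed within a similar range. It was at 8.86, 11.9, 21.9 and 22.5 CPM at acute 72 h and at 14.4, 6.97, 36.8 and 38.7 CPM at acute 7 d, so the 3 acute ranges overlap and the spread was widest at 7 d. After the chronic course it was at 41.5, 49.0, 42.4 and 68.5 CPM at 72 h and at 5.40, 16.7, 7.58 and 6.61 CPM at 14 d. The chronic 14 d libraries overlap the acute ones but none reaches the healthy range (log2 fold change against healthy 2.91 ± 0.51, adjusted p = 0.000827). In order of mean level the groups were chronic 24 h (101 ± 12.0 SD), chronic 72 h (50.4 ± 12.6), acute 7 d (24.2 ± 15.9), acute 24 h (19.3 ± 7.21), acute 72 h (16.3 ± 6.95), chronic 14 d (9.08 ± 5.17) and healthy (1.19 ± 0.504). Chronic 24 h and 72 h libraries do not overlap, yet their difference of -1.0 ± 0.43 on the log2 scale had an adjusted p of 0.121. From acute 7 d to chronic 14 d each group overlapped its neighbour in this order.

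Has2 (ENSMUSG00000022367, chr15:56665627-56694539, minus strand), the synthase known as essential in the embryo, was counted mainly during ongoing chronic injury. No read was counted in the 4 healthy or the 4 chronic 14 d libraries. At chronic 24 h it had 15, 49, 131 and 65 counts, which are 2.25, 6.73, 11.5 and 5.2 CPM. At acute 7 d it had 24, 23, 30 and 0 counts, at acute 72 h 11, 8, 6 and 0, at acute 24 h 0, 3 and 0, and at chronic 72 h 0, 0, 0 and 5. Only the chronic 24 h group had the gene in each of its libraries.

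For Has2, group means were set against a floor of 3 counts per healthy library. The mean was 23.8 times this floor at chronic 24 h, 5.79 times at acute 7 d and 2.0 times at acute 72 h. The edgeR adjusted p against healthy was 0.000626, 0.00748 and 0.0402 in that order. These ratios take no account of the spread between libraries. At acute 7 d and at acute 72 h the mean includes a library with no count. The acute 72 h call is the least firm. It was lost when any of acute 72 h replicates 1 to 3 or any healthy replicate was left out, with adjusted p between 0.0596 and 0.0797, and with no filter on low counts (0.0586), with higher-depth libraries alone (0.0609) or with the replicate number as a block (0.0666). At acute 24 h and chronic 72 h the mean of Has2 was under the floor (adjusted p = 0.297 and 0.262). Its exons share 182 bases with the antisense gene Has2os, which had 21 counts over all libraries, and the strand used in counting is not given in the sources used here.

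Has3 (ENSMUSG00000031910, chr8:106870242-106884566, plus strand) and Cemip (ENSMUSG00000052353, chr7:83932857-84086502, minus strand), which encodes a protein needed for hyaluronan breakdown in skin fibroblasts, were near the limit of detection. Has3 had 35 counts over all 27 libraries, between 0 and 9 in each, and 18 libraries had none. Cemip had 3 counts in healthy replicate 2 and none in the other 26 libraries. In a library with none, the floor of 3 counts corresponds to means of 0.240 to 0.400 CPM by group, and a change below that was not detectable at this depth. Has3 shares 352 exon bases with Chtf8 on the opposite strand.

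**Figure D2:**
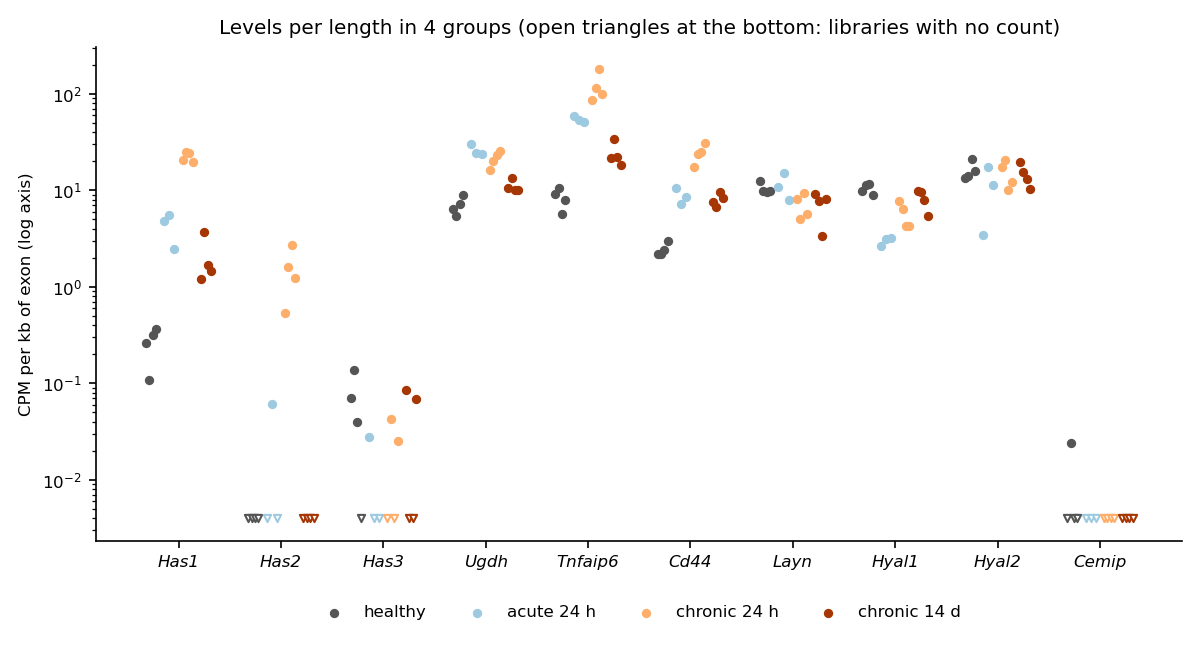
Level of all 10 genes per kilobase of annotated exon (log axis) in healthy, acute 24 h, chronic 24 h and chronic 14 d libraries, each point a library and open triangles libraries with no count. Has1 lies below Hyal1 in healthy libraries and above it in chronic 24 h libraries, and Has3 and Cemip are low or at 0 throughout.

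Per kilobase of exon, the scale on which genes can be set side by side, the order of Has1 and Hyal1 differed between states. In healthy libraries Has1 was at 0.108 to 0.364 CPM per kb and Hyal1 at 8.86 to 11.5. At chronic 24 h Has1 was at 19.5 to 24.9 and Hyal1 at 4.24 to 7.78 CPM per kb, so the order of both genes was inverted in every library of these groups. Has2 reached 0.531 to 2.71 CPM per kb at chronic 24 h, below Has1 in each library. The member with the highest mean level in healthy libraries was Hyal2 (16.1 ± 3.46 CPM per kb), and at chronic 24 h it was Tnfaip6 (120 ± 41.0). Lengths are those of all exons of a gene joined, which can differ from those of the transcripts in use.

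Ugdh (ENSMUSG00000029201, chr5:65413221-65435949, minus strand) encodes UDP-glucose dehydrogenase, which makes the UDP-glucuronic acid used for hyaluronan and for other glycosaminoglycans and for glucuronidation. It was at 43.7, 36.5, 48.2 and 60.2 CPM in healthy HSCs and at 206, 163 and 161 CPM at acute 24 h. At chronic 24 h it was at 109, 135, 159 and 175 CPM. Neither injured group overlaps healthy, and they overlap each other. The log2 fold change against healthy was 1.90 ± 0.22 at acute 24 h (adjusted p = 8.17e-07), 1.72 at acute 72 h, 1.61 at chronic 24 h and 1.20 at chronic 72 h.

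Ugdh then lay closer to healthy at the last time point of each course. At acute 7 d it was at 91.9, 95.8, 113 and 89.9 CPM (log2 fold change 1.05, adjusted p = 0.000645), which fell under 2-fold without acute 7 d replicate 3 (0.97) or without healthy replicate 2 (0.95). At chronic 14 d it was at 70.8, 91.6, 68.7 and 67.7 CPM (0.66, adjusted p = 0.0448), above all healthy libraries but under the 2-fold minimum. With depth class as a term this last value was 1.21 (adjusted p = 0.00597), which would be a call, and all 4 chronic 14 d libraries are of lower depth.

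Among the 9 other genes listed under precursor supply, which act on the UDP-sugars or their precursors and do not all make them, Gfpt2 moved most. Gfpt2, an isoform of the rate-limiting enzyme of the hexosamine pathway, was at 13.1 ± 2.54 CPM (SD, n = 4) in healthy, 184 ± 35.5 at acute 24 h (n = 3) and 88.8 ± 15.6 at chronic 24 h (n = 4), with log2 fold changes of 3.82 ± 0.31 (adjusted p = 7.54e-09) and 2.77 ± 0.29 (adjusted p = 1.52e-07). It was 2.07-fold lower at chronic than at acute 24 h (adjusted p = 0.0101), the reverse of Has1. At acute 24 h 3 of the 9 were called higher, Gfpt2, Pgm3 (2.41) and Uxs1 (1.37), the last of which turns UDP-glucuronic acid into UDP-xylose. Those called higher at chronic 24 h were also 3, Gfpt2, Uap1l1 (1.51) and Uxs1 (1.15). None was lower than healthy at an unadjusted p below 0.05 in any group, and 8 of the 9 were higher at that level at chronic 24 h. At chronic 14 d none was called in edgeR, with 2 higher at an unadjusted p below 0.05. The list's median log2 fold change was 0.45 at acute 24 h and 0.76 at chronic 24 h, beside -0.12 and -0.03 over all genes. Of all genes, 9.41% were called higher at acute 24 h and 11.2% at chronic 24 h.

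Tnfaip6 (ENSMUSG00000053475, chr2:52038009-52056686, plus strand) had a course like that of Has1. It was at 15.8, 18.1, 9.77 and 13.5 CPM in healthy HSCs, at 100, 90.9 and 87.9 CPM at acute 24 h and at 148, 196, 306 and 170 CPM at chronic 24 h. These 3 groups do not overlap one another. The log2 fold change against healthy was 2.70 ± 0.36 at acute 24 h (adjusted p = 4.48e-06), 3.84 ± 0.36 at chronic 24 h (adjusted p = 3.63e-08) and 1.53 ± 0.33 at chronic 14 d (adjusted p = 0.00472). The means of the other groups were 75.6 ± 20.1 CPM at acute 72 h, 72.0 ± 34.9 at acute 7 d, 121 ± 53.6 at chronic 72 h and 41.3 ± 11.7 at chronic 14 d. Its upstream sequence, with the AP-1 letters, is given above.

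Cd44 (ENSMUSG00000005087, chr2:102811141-102901665, minus strand) encodes the main hyaluronan receptor, which is also carried by many leukocytes. It was at 14.9, 14.7, 16.4 and 20.3 CPM in healthy HSCs, at 71.8, 49.1 and 57.9 CPM at acute 24 h and at 119, 160, 170 and 209 CPM at chronic 24 h, again with no overlap among the 3 groups. Its acute means were 59.6 ± 11.5 CPM at 24 h, 94.0 ± 13.2 at 72 h and 102 ± 26.2 at 7 d. The step from 24 h to 72 h stayed under 2-fold (0.66, adjusted p = 0.0281), and the 72 h and 7 d libraries overlap. The log2 fold change against healthy was 1.85 ± 0.21 at acute 24 h (adjusted p = 8.07e-07), 2.62 ± 0.21 at acute 7 d (adjusted p = 1.67e-08), 3.31 ± 0.21 at chronic 24 h (adjusted p = 1.33e-10) and 1.72 ± 0.20 at chronic 14 d (adjusted p = 1.16e-05).

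Summed levels of 10 macrophage markers moved with Cd44 at some time points only. At acute 24 h they summed to 121 to 176 CPM beside 136 to 581 CPM in healthy libraries, with 1 of 10 called higher and 2 lower, when Cd44 was called higher. At acute 7 d they summed to 4099 to 10425 CPM with 9 of 10 called higher, and at chronic 24 h to 500 to 3363 CPM with 7 called higher. Marco was at 0 in all healthy libraries. Neutrophil markers were called higher in every injured group, 4 of 6 at acute 24 h, 3 at acute 72 h and 5 in each of the others. They were low, with a sum of at most 18.7 CPM at acute 24 h and 14.1 to 50.1 CPM at chronic 24 h beside 0.390 to 2.18 CPM in healthy libraries, where S100a8, Ly6g, Mpo and Retnlg were at 0. T and NK cell markers were called higher for 4 of 7 and B cell markers for 4 of 4 at both acute 7 d and chronic 14 d. The part of leukocytes in the Cd44 values was not tested at any time point.

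Layn (ENSMUSG00000060594, chr9:51054640-51077094, minus strand), which encodes the C-type lectin receptor layilin, did not follow Cd44. It was at 30.5, 23.5, 23.0 and 23.9 CPM in healthy, 25.8, 36.2 and 19.1 CPM at acute 24 h and 19.6, 12.1, 22.9 and 13.6 CPM at chronic 24 h. No group was called, and 19 of the 23 injured libraries lay below the lowest healthy one. The lowest log2 fold changes were -0.76 ± 0.25 at acute 72 h (adjusted p = 0.0354) and -0.79 ± 0.26 at chronic 72 h (adjusted p = 0.0309), both under 2-fold.

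**Figure D3:**
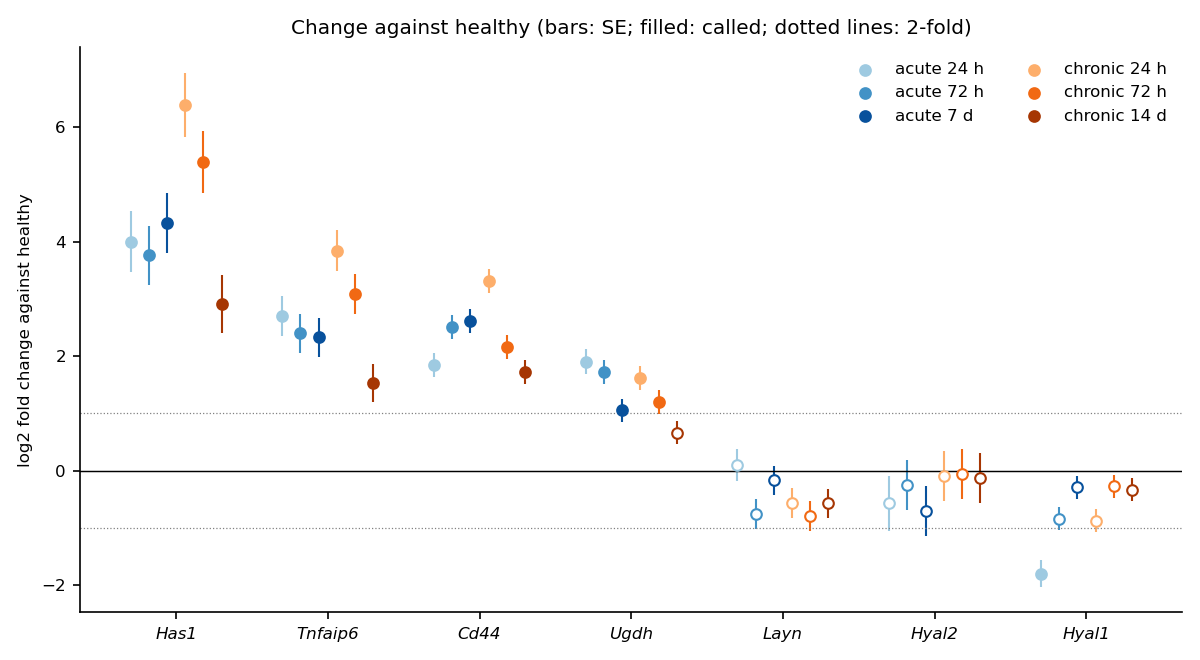
Log2 fold change of 7 hyaluronan genes against healthy in the 6 injured groups, with SE as bars, filled points for called genes and dotted lines at 2-fold. Has1, Tnfaip6 and Cd44 are called in all 6 groups, and Hyal1 lies at -1.80 at acute 24 h.

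Hyal1 (ENSMUSG00000010051, chr9:107576927-107581710, plus strand), the lysosomal hyaluronidase, was lower at the earliest time point after a single injection. It was at 36.9, 43.2, 43.5 and 33.4 CPM in healthy HSCs and at 10.1, 11.8 and 12.0 CPM at acute 24 h, a gap with no overlap (log2 fold change -1.80 ± 0.23, adjusted p = 3.02e-06). At acute 72 h it was at 24.8, 25.3, 16.3 and 21.3 CPM (-0.84, adjusted p = 0.00392), and at acute 7 d its range of 27 to 35.4 CPM overlapped healthy. At chronic 24 h it was at 29.4, 24.3, 16.3 and 16 CPM (-0.87 ± 0.20, adjusted p = 0.00192), below all healthy libraries and under 2-fold. The value of chronic 24 h moved with depth. The 2 libraries of lower depth were at 24.3 and 29.4 CPM and the 2 of higher depth at 16 and 16.3, and with higher-depth libraries alone the change was -1.27 (adjusted p = 0.000347). Without chronic 24 h replicate 1 it was -1.06.

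Counts of Hyal1 are uncertain because its exons share 1920 bases with Naa80 and 159 with Hyal3 on the same strand. Naa80 had 6521 and Hyal3 353 counts over all libraries, beside 7821 of Hyal1. Hyal2 (ENSMUSG00000010047, chr9:107567945-107572779, plus strand), the membrane-anchored hyaluronidase next to it on the chromosome, was called in no comparison. It was at 43.8, 46.8, 69.3 and 52.1 CPM in healthy, 11.5, 57.7 and 37.8 CPM at acute 24 h and 46.0, 9.43, 14.7 and 60.5 CPM at acute 7 d, where replicates of 1 group differed most. The log2 fold change of Hyal2 at acute 24 h was -0.57 ± 0.48 (adjusted p = 0.388) and at acute 7 d -0.70 ± 0.44 (adjusted p = 0.270), so a moderate change was not detectable with this spread.

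Of 4 other breakdown enzymes that were tested, none was called higher than healthy in any injured group by edgeR, with 2 each higher at an unadjusted p below 0.05 at acute 7 d and chronic 72 h, 1 each at acute 72 h and chronic 24 h, and 0 at acute 24 h and chronic 14 d. At acute 24 h Hexa, which encodes a lysosomal enzyme, was called lower (-1.23 ± 0.29, adjusted p = 0.00194), as were 12.5% of all genes. At acute 72 h Hyal3 was called lower (-1.39, adjusted p = 0.0420), as were 4.33% of all genes, and went from 1.77 to 0.669 CPM. At chronic 24 h 1 was lower at that level and none was called, and Hexa and Gusb were each called higher than at acute 24 h (1.67 and 1.01). Cemip2, which encodes a cell-surface hyaluronidase, was at 34.6 CPM in healthy and 40.0 CPM at chronic 24 h (0.21 ± 0.27, adjusted p = 0.594). Of the 8 on the list, Hyal4, Hyal5, Hyal6 and Spam1 did not pass the filter. Over all genes, 4.55% to 11.2% were called higher than healthy in the injured groups, and 10.9% were called higher at chronic than at acute 24 h.

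The largest change among hyaluronan binders was that of Vcan, the gene of the proteoglycan versican, whose core protein binds hyaluronan. Vcan was at 2.20 ± 1.20 CPM in healthy, 48.7 ± 17.2 at acute 24 h and 65.4 ± 14.2 at chronic 24 h, with log2 fold changes of 4.47 ± 0.40 (adjusted p = 3.44e-08) and 4.89 ± 0.40 (adjusted p = 5.07e-09). It was at 8.29 CPM at chronic 72 h and 5.95 CPM at chronic 14 d, where it was still called higher than healthy (1.92 and 1.44). Ptx3, whose product pentraxin 3 joins TSG-6 in hyaluronan matrices, was called higher at chronic 24 h (2.59, adjusted p = 0.0117) at a mean of 2.90 CPM. Over the 13 tested genes of the list, 2 were called higher and 4 lower at acute 24 h, beside 9.41% and 12.5% of all genes. At chronic 24 h 2 were called higher and 1 lower, Hapln3 (-1.14), beside 11.2% and 8.11% of all genes.

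The genes called lower at acute 24 h include Itih1 (-4.45), Ambp (-4.08) and Habp2 (-3.82), which encode carriers and binders that the liver secretes into plasma. At that time 7 of 10 hepatocyte markers were also called lower, with a summed level of 107 to 297 CPM beside 458 to 2555 CPM in healthy libraries, and Fabp1 and Ttc36 were at 0. The part of hepatocyte RNA in these 3 genes was not tested. Itih4 was called higher at chronic 14 d (2.39, adjusted p = 0.0213), where its libraries overlapped healthy and the hepatocyte markers summed to 1201 to 6576 CPM.

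Other receptors moved in different directions. Of the 6 tested, 1 was called higher and 2 lower at acute 24 h, beside 9.41% and 12.5% of all genes. At acute 24 h Lyve1, a hyaluronan receptor of lymphatic and sinusoidal endothelium, was called higher (1.57 ± 0.51, adjusted p = 0.0204), from 7.93 to 23.7 CPM, while Stab1 (-1.59) and Tlr2 (-1.17) were called lower. Stab2, like Stab1 a scavenger receptor of sinusoidal endothelium, was called lower at acute 72 h (-2.49, adjusted p = 0.0199) and chronic 24 h (-2.18, adjusted p = 0.0303). Lyve1 and Stab2 are themselves on the list of 10 sinusoidal endothelial markers. Of the other 8, 6 were called lower at acute 24 h, 8 at acute 72 h and 4 at chronic 24 h, and none was called higher there. The part of such cells in the receptor values was not tested. Hmmr, a receptor gene whose expression is also known to follow the cell cycle, was at 1.34 CPM in healthy and 36.3 ± 11.5 CPM at acute 72 h (4.75 ± 0.75, adjusted p = 7.62e-05), and at 1.46 CPM at chronic 72 h. Tlr2 was called higher at acute 7 d (2.23), chronic 24 h (1.55), chronic 72 h (1.48) and chronic 14 d (2.05), groups in which macrophage markers were also higher, and their part was not tested. Among the 4 genes that link CD44 to actin, Ank3 was called lower in all injured groups but chronic 14 d, with -2.50 ± 0.31 at chronic 24 h (adjusted p = 1.38e-06), from 584 to 103 CPM. Ezr, Rdx and Msn were called in no comparison with healthy. In the injured groups other than acute 24 h, 4.55% to 11.2% of all genes were called higher than healthy and 1.17% to 8.11% lower.

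**Figure D4:**
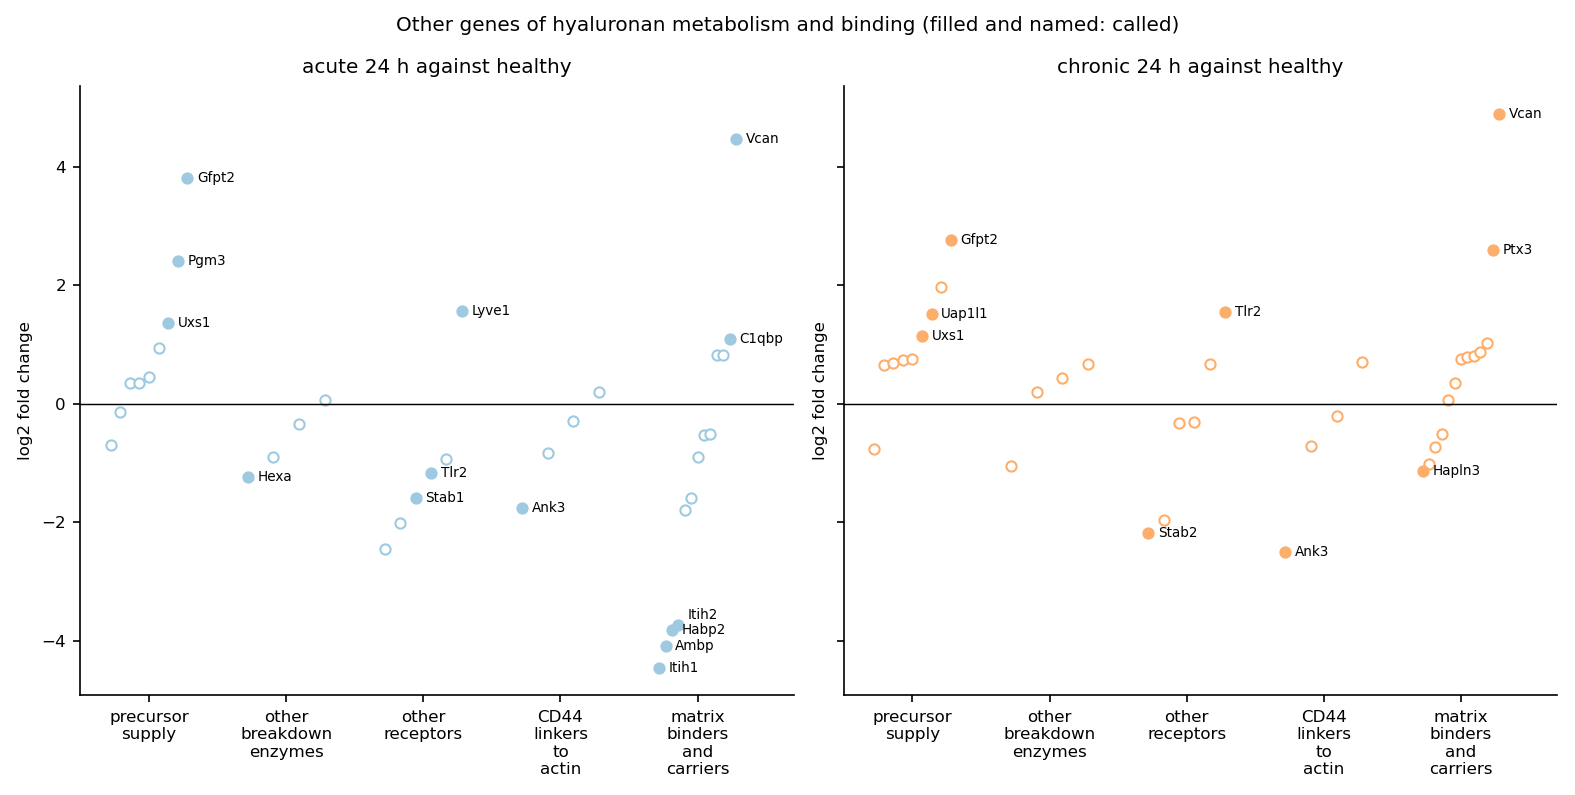
Log2 fold change against healthy of the tested genes of 5 lists of hyaluronan supply, breakdown and binding at acute 24 h (left) and chronic 24 h (right), with called genes filled and named. Vcan and Gfpt2 are the highest in both panels, and Itih1, Ambp and Habp2 the lowest at acute 24 h.

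Chronic injury was set against a single injection to ask whether the response differs when injury is repeated. At 24 h Has2 and 3 of the other 7 members were higher in the chronic group, where 10.9% of all genes were called higher, and none was lower in edgeR or DESeq2, where 3.05% of all genes were and 1 member was at an unadjusted p below 0.05. Has1 was higher by 2.39 ± 0.50 on the log2 scale (adjusted p = 0.00145), Has2 by 6.02 ± 1.51 (adjusted p = 0.00845), Cd44 by 1.47 ± 0.22 (adjusted p = 4.52e-05) and Tnfaip6 by 1.14 ± 0.36 (adjusted p = 0.0235). Has2 rested on 3 counts in 1 of 3 acute libraries and 260 counts in the chronic ones, a ratio of 78.8 per total count with an exact 95% interval of 26.7 to 385 for counting error only. For each of the 4 genes every chronic 24 h library lay above every acute 24 h library, and the share of all genes that do so was not counted. Markers of other cells were also higher in the chronic group, namely 6 of 9 for mesothelial cells and portal fibroblasts (26.2 to 59.3 CPM in sum at acute and 127 to 253 CPM at chronic 24 h), 7 of 10 for macrophages, 5 of 7 for T and NK cells and 4 of 4 for B cells. Their part in these differences was not tested. The Tnfaip6 call was lost without any of the 3 acute 24 h replicates, with adjusted p of 0.0606, 0.0803 and 0.0738, and without chronic 24 h replicate 3, where the difference was 0.88 (adjusted p = 0.0864). Hyal1 was 0.92 ± 0.22 higher (adjusted p = 0.00452), under 2-fold, and 1.03 without chronic 24 h replicate 3. Ugdh differed by -0.29 ± 0.22 (adjusted p = 0.374), with overlapping libraries.

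At 72 h only Has1 was higher in chronic than in acute HSCs, by 1.62 ± 0.44 (adjusted p = 0.0146), where 5.11% of all genes were called higher and 4.01% lower. The call was lost without acute 72 h replicate 1 (1.42, adjusted p = 0.0522) or replicate 2 (1.5, adjusted p = 0.0501), and with higher-depth libraries alone (1.81, adjusted p = 0.0570). Cd44 differed by -0.34 ± 0.20 (adjusted p = 0.264) and Tnfaip6 by 0.68 ± 0.32 (adjusted p = 0.168). Chronic mice had started treatment at 8 to 10 weeks of age and acute mice at 10 to 12 weeks. HSCs of chronic mice were taken after the 4-week course, so by these ages the chronic groups were older at collection. Healthy mice were 10 to 12 weeks old. Age and course therefore cannot be told apart, whether chronic groups are compared with acute or with healthy ones.

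Between acute 24 h and 72 h none of the 8 members was called by edgeR or DESeq2, with 3 at an unadjusted p below 0.05, where 11.2% of all genes were called higher and 3.76% lower. These 3 were Hyal1 (0.95, adjusted p = 0.00290), Layn (-0.86, adjusted p = 0.0239) and Cd44, all under 2-fold. Without acute 24 h replicate 3 both Hyal1 (1.00, adjusted p = 0.00963) and Layn (-1.05, adjusted p = 0.0133) passed 2-fold, as did Hyal1 without acute 72 h replicate 3 (1.01, adjusted p = 0.00344).

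When CCl4 was stopped after the chronic course, Has2 and Cd44 were lower by 72 h and Has1, Has2, Cd44 and Tnfaip6 by 14 d, whereas Hyal1, Hyal2 and Layn were not called. From 24 h to 72 h Has2 and 1 of the other 7 members were called lower, beside 3.65% of all genes (4.72% were called higher). They were Has2 (-5.66 ± 1.31, adjusted p = 0.00669) and Cd44 (-1.15 ± 0.20, adjusted p = 0.000303). Cd44 fell to 62.1, 74.7, 69.5 and 90.7 CPM, all below the lowest chronic 24 h library. Without chronic 24 h replicate 4 the Cd44 change was -0.98, under 2-fold, and with higher-depth libraries alone Has2 had an adjusted p of 0.0980. Tnfaip6 changed by -0.77 (adjusted p = 0.112), and by -1.12 (adjusted p = 0.0228) without chronic 72 h replicate 4. Hyal1 changed by 0.60 (adjusted p = 0.0458), under 2-fold. With higher-depth libraries alone it changed by 1.12 (adjusted p = 0.00666), which would be a call.

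By 14 d Has2 and 3 of the other 7 members were lower than at chronic 24 h, beside 6.11% of all genes, and none was higher in edgeR or DESeq2, beside 6.65%, with 1 at an unadjusted p below 0.05. The log2 fold change was -3.47 ± 0.48 for Has1 (adjusted p = 1.55e-05), -2.31 ± 0.34 for Tnfaip6 (adjusted p = 2.91e-05) and -1.59 ± 0.20 for Cd44 (adjusted p = 5.42e-06). For Has2 the chronic 24 h mean was 16 times a floor of 3 counts per chronic 14 d library (edgeR adjusted p = 0.00174 for the comparison). No library of either group overlapped the other for these genes. Ugdh differed by -0.95 ± 0.21 (adjusted p = 0.00167), under 2-fold, although it was -1.06 when replicate 1 of chronic 24 h was left out and -1.02 when replicate 2 of chronic 14 d was. Hyal1 differed by 0.54 ± 0.20 (adjusted p = 0.0576) and Layn by -0.01 ± 0.26 (adjusted p = 0.993). Among the 13 tested matrix binders and carriers Vcan was called lower (-3.45) and Itih1 (2.90) and Habp2 (2.25) higher, as were 5 of 10 hepatocyte markers. Cd44 at 51.7, 45.1, 65.5 and 56.4 CPM and Tnfaip6 at 37.1, 58.3, 38.4 and 31.6 CPM remained above all healthy libraries. All chronic 14 d libraries are of lower depth. The lower-depth pair of chronic 24 h, with Has1 at 93.8 and 112 CPM, also lay above every chronic 14 d library for Has1, Has2, Cd44 and Tnfaip6, and with depth class as a term all 4 genes were still called lower (-3.42 for Has1, -1.41 for Cd44 and -2.0 for Tnfaip6, with Has2 at an adjusted p of 0.00704). Within chronic 24 h, Has1 and Tnfaip6 of the lower- and higher-depth libraries overlapped, while Cd44 was at 119 to 160 CPM in the lower-depth and 170 to 209 CPM in the higher-depth pair.

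Has1, Has2, Tnfaip6 and Cd44 belong to gene programs that the study drew from these same libraries, so their direction here is not independent of that choice.

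**Figure D5:**
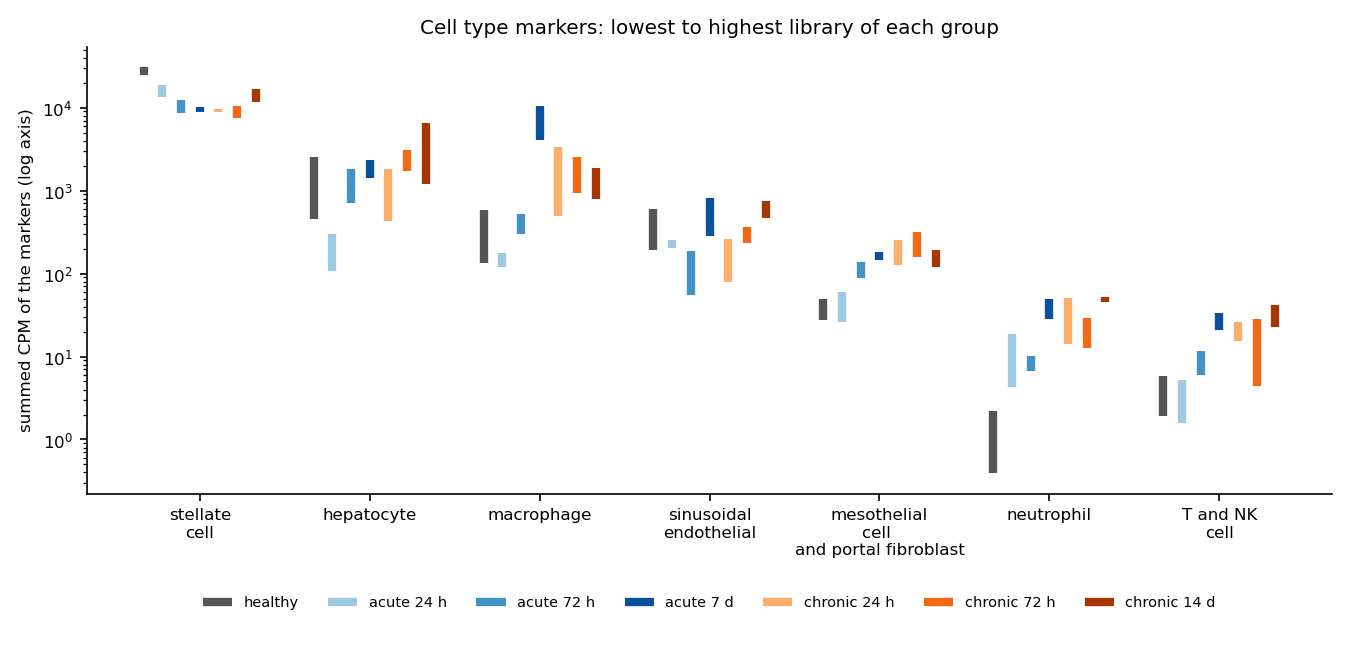
Summed level of the markers of 7 cell types (CPM, log axis) as a bar from the lowest to the highest library of each group. Stellate cell markers are highest in healthy libraries, macrophage markers highest at acute 7 d, and neutrophil and T and NK cell markers stay below 55 CPM.

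Mesothelial cells and portal fibroblasts can also express hyaluronan synthases, so their markers were followed beside Has1. The 10 markers summed to 27.4 to 48.8 CPM in healthy and to 26.2 to 59.3 CPM at acute 24 h, when 1 of 9 tested was called higher and 2 lower and Msln and Lrrn4 were at 0. Has1 was called higher at that time. They summed to 88.1 to 138 CPM at acute 72 h, with 2 called higher, Wt1 and Cd34, and 1 lower, and to 148 to 183 CPM at acute 7 d, with 3 higher. Has1 and Has2 were called higher in both groups. By chronic 24 h they summed to 127 to 253 CPM and 3 of 9 were called higher, Wt1, Thy1 and Cd34, of which Wt1 went from 4.11 to 71.7 CPM and Cd34 from 14.7 to 87.3 CPM. Upk3b, a mesothelial marker, was at 3.17 CPM in healthy and 2.28 CPM at chronic 24 h (-0.51, not called). The sum was highest at chronic 72 h (159 to 319 CPM), where Has1 was lower than at chronic 24 h in every library and Has2 was counted in 1 library. The part of such cells in the values of Has1 and Has2 was not tested. B cell markers summed to at most 38.0 CPM in any library.

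Over all 27 libraries and 16080 genes with a mean of at least 1 CPM, the non-member genes whose log2 CPM was most like that of Has1 were Pim1 (Pearson r = 0.94), Plat (0.94), Rasl11b (0.93), Kctd15 (0.91) and Tnfaip2 (0.91). For Has2 they were Tnfrsf23 (0.89), Inava (0.84), Pheta2 (0.83), Ptprn (0.82) and Ext1 (0.82). Among the members, Has1 and Tnfaip6 had an r of 0.95, Has1 and Cd44 0.87, and Hyal1 and Ugdh -0.75. The libraries share groups and depth classes, and 15 of them had no Has2 count, so these values describe the libraries and carry no test.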

How the data were processed

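RNA of UV-sorted HSCs was sequenced in 27 libraries of 7 groups, taken from the sample labels. According to the labels and methods, the authors trimmed single-end reads of 75 bp, mapped them to GRCm38.p6 (STAR) and ran StringTie for gene assembly. What they deposited are raw counts for 53379 Ensembl genes, not normalized. The step from assembly to counts, tool versions, strandedness and annotation release were not given in the sources used here. The methods describe each repeat as an individual experiment. Symbols and positions came from GENCODE M21, and 105 gene IDs had no match.

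The counts were tested with edgeR 4.0.16 and limma 3.58.1 in R 4.3.3. Genes passing filterByExpr (18758) were fitted after TMM scaling in 1 robust quasi-likelihood model over all 27 libraries, with 11 comparisons of group means, Benjamini-Hochberg adjustment over all tested genes and a 2-fold minimum. Log2 CPM used a prior count of 2. Bounds used a floor of 3 counts per library and cover counting error only. Depth was 6.31 M to 13.1 M counts, so members under the floor could not be compared.

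The members and lists were chosen with earlier results of these data known. One further gene of the list of breakdown enzymes is not reported here, for a reason unrelated to its values, and is left out of its counts. The text names all 10 members, up to 4 called genes per pathway list and comparison with the largest changes, and the 5 genes most like Has1 and Has2. Markers are given beside the results they move with. As alternatives, the scaling was changed to library size or DESeq2 size factors, the test to DESeq2 1.42.0, the filter to none or to a mean CPM of 1, the thresholds to an adjusted p of 0.1 or to no fold minimum, and the model to the compared groups only, to a replicate block, to a depth-class term or to higher-depth libraries, and each library was left out in turn. The procedure was tested on simulated data. Figures used Python 3.11.15 and matplotlib 3.10.9.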

Additional observations from a re-analysis of the deposited data

Results flagged for a closer look

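In 46 combinations of a member and a group of 4 libraries, 4 held 1 library far from the other 3, where chance alone gives about 1 in 20. Has2 was at 0.392 CPM (5 counts) in chronic 72 h replicate 4 and at 0 in the others, and with 3 libraries at 0 any count in the fourth would stand apart, so that this case adds nothing to the number. Hyal1 was at 39.5 CPM in chronic 72 h replicate 4, with the next at 30.8. Layn was at 30.5 CPM in healthy replicate 1, with the next at 23.9, and Ugdh at 91.6 CPM in chronic 14 d replicate 2, with the next at 70.8.

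Levels differed between chronic and acute injury by a direct test in 5 cases, where age and course cannot be told apart. Of these, Has2 passed the filter on low counts only through the groups in which it was high, so its test is no separate support. At 24 h the difference was 2.39 on the log2 scale for Has1, 6.02 for Has2, 1.47 for Cd44 and 1.14 for Tnfaip6, all higher in chronic HSCs. At 72 h it was 1.62 for Has1. The Tnfaip6 call at 24 h and the Has1 call at 72 h were each lost when certain single libraries were left out, as given above.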

How the results depend on the processing

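The 38 called results of single members kept their sign under all 704 alternatives and were still called under 683. These alternatives include the looser threshold on adjusted p and the absence of a fold minimum, both applied to the unchanged main results. A called result cannot change its sign or lose its call under either, so that part of the agreement was fixed in advance. The numbers without these threshold changes were not counted. Counts of called members in this section include Has2. They stayed within 1.5 times of the count of the main model in 226 of 238 alternatives that keep every library or drop a depth class. The same held in 163 of 170 alternatives that leave out 1 library. For acute 72 h against acute 24 h the count called higher, reported as 0, was 1 with library size alone and 2 with no fold minimum, and the count called lower was 1 with no fold minimum. For chronic 24 h against healthy 1 was called lower, Hyal1, with depth class as a term, with higher-depth libraries alone or with no fold minimum. For chronic 72 h against acute 72 h 0 were higher with higher-depth libraries alone. For chronic 72 h against chronic 24 h 1 was higher, Hyal1, with higher-depth libraries alone or with no fold minimum, and 1 was lower with higher-depth libraries alone. With no fold minimum 2 were lower than healthy at acute 72 h and 1 at chronic 72 h. When 1 library was left out, counts ranged from 0 to 1 for members higher and for members lower at acute 72 h than at acute 24 h, for members lower at chronic 24 h than in healthy and for members higher at chronic than at acute 72 h, and from 1 to 3 for members lower at chronic 72 h than at chronic 24 h. The causes were not tested. Library size alone moved the median of all genes by up to 0.17 on the log2 scale.

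Replicate numbers showed no clear pairing of the libraries. Over 41 pairs with the same number the correlation of their deviations was between -0.17 and 0.17. In 16 of them a library correlated best with the one of its own number, and the number expected by chance was not counted. In the chronic 24 h and 72 h groups replicates 1 and 2 are of lower depth, so number and depth cannot be told apart there. With the replicate number as a block, Has2 at acute 72 h was no longer called (log2 fold change 5.45, adjusted p = 0.0666 in edgeR). Of the 5 members called higher there with Has2 counted, 4 were left. The same held with no filter (0.0586) and with higher-depth libraries alone (0.0609). With the block no other call of a member changed. Low counts limit Has2, Has3 and Cemip, and the 8 lower-depth libraries limit the chronic groups.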
